A study of Danio rerio with 13 samples.

Results

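The genes described here are the adult globins hbaa1, hbaa2, hbba1 and hbba2 and the erythroid genes gata1a, alas2 and slc4a1a. They were chosen by gene symbol, as every promoter window that carries one of these 7 symbols, which gave 16 of the 42037 windows of the series. 8 of the 16 belong to the globins and 8 to the other 3 genes. The symbol hbba1 stands at 2 Ensembl gene IDs, so the 7 symbols cover 8 gene IDs.

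The study profiled a pair of histone marks by chromatin immunoprecipitation and sequencing in adult zebrafish of the TuAB strain, aged 1 to 1.5 years. Hearts at day 5 after their ventricular apex was resected were compared with uninjured hearts, with 3 libraries per condition for each mark, all described as biological replicates, and 1 mixed input sample that is not analysed here. Both conditions came from the apical part of the ventricle, dissociated and held on a 10 micrometre mesh that keeps cardiomyocytes, while cells that passed through it were discarded. The material was therefore an enriched cell mixture and not a pure cell type, and in such a mixture a change in the share of a cell type and a change per cell cannot be told apart.

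Haemoglobin is built from alpha and beta globin chains, each holding a haem group, and zebrafish switch from embryonic to adult globins during development. The major globin locus carries adult alpha and beta genes in head-to-head pairs beside the embryonic genes. GATA1, encoded by gata1a, is the transcription factor that drives red cell differentiation, alas2 encodes the erythroid enzyme that starts haem synthesis, and slc4a1a encodes band 3, the anion exchanger of the red cell membrane. Fish red cells keep their nucleus, so unlike those of mammals they carry chromatin in the circulation. H3K4me3 marks active promoters, and H3K27me3, the product of Polycomb repressive complex PRC2, marks silenced ones.

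Each window covers 4 kb, with 2 kb on each side of its centre, so levels of different windows refer to the same length. The level of a mark is the authors' mean normalised read count over the 6 libraries of both conditions, and values of single libraries are not analysed here. The median over all windows was 82.9 for H3K4me3 and 56.1 for H3K27me3, which is the measure of depth at hand. A window was called changed where the authors' adjusted p lay under 0.05. That adjusted p was given for H3K4me3 only to windows with a mean count of 51.8 or more. Log2 fold changes are those of resected over uninjured hearts, and for H3K4me3 they appear to have been shrunk towards 0, from the ceiling of their standard errors. Coordinates are counted from 1, in a genome build that the sources used here do not assign to the windows.

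The 8 adult globin windows lie within 16.3 kb of chromosome 3 and form 3 groups of overlapping windows, each made of a beta globin gene on the minus strand and a gene on the plus strand. In the first pair, hbba2 (54835450 to 54839449) and hbaa2 (54836980 to 54840979) share 2470 bases, 61.8% of each window. In the second pair, the hbba1 window of ENSDARG00000097238 (54842671 to 54846670) shares 3227 and 3208 bases with the 2 windows of hbaa1 (54843444 to 54847443 and 54843463 to 54847462), which themselves share 3981 bases. In the third, the 3 windows of hbba1 under ENSDARG00000089087 start at 54847487, 54847656 and 54847709. They share 3022, 3191 and 3244 bases with the window of si:ch211-5k11.8 (54848465 to 54852464), a gene on the plus strand that is not among the 7.

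Reads in a shared stretch count for both genes, so the 8 windows amount to 3 separate places and cannot be assigned to one chain or the other. Only 24 bases separate the second group from the third, against 1691 bases between the first and the second. Adult globin copies also resemble each other in sequence, and the sources used here do not say how reads with several matches were treated, so the split of signal between the pairs is uncertain.

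H3K4me3 was higher in resected hearts at the promoters of the first pair and the second pair of adult globins. The 5 called windows belong to hbba2, hbaa2, hbaa1 and the hbba1 gene ENSDARG00000097238, with log2 fold changes between 0.88 and 0.96 in the authors' deposited table. They are 5 of the 14 windows of the 7 genes that had an adjusted p, and none of the 14 was called lower. Of all windows with an adjusted p, 3.04% were called in either direction and 1.44% were called higher. At an unadjusted p under 0.05 stood all 8 globin windows and 2 of the 8 others, against 8.47% of all windows. These 2 are windows of slc4a1a that share 3840 bases, and the globin windows overlap as given above, so the counts are not of separate measurements.

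The largest fold change was at hbaa2, an adult alpha globin gene, with a log2 fold change of 0.96 (SE 0.27, adjusted p = 0.0218) and a mean count of 92.0 in the authors' deposited table. Its beta partner hbba2, which overlaps it, had 0.94 (SE 0.27, adjusted p = 0.0226) and a mean count of 95.2 in the authors' deposited table. With the shrinkage undone and equal weight for each library, these values imply mean counts at hbaa2 of 132 in resected and 52.2 in uninjured hearts, a ratio of 2.53. For hbba2 the implied means were 135 in resected and 55.3 in uninjured hearts, a ratio of 2.44. The implied means were computed from the mean count and the fold change. No error was computed for them, and they inherit that of the fold change. With the shrinkage undone, the 95% interval of the log2 fold change was 0.59 to 2.09 at hbaa2 and 0.57 to 2.01 at hbba2.

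The second pair held more H3K4me3 and changed by a similar amount. In the authors' deposited table the 2 windows of hbaa1 had log2 fold changes of 0.91 and 0.90 (SE 0.24 each, adjusted p = 0.0107 and 0.0130), at mean counts of 209 and 208. The hbba1 window of ENSDARG00000097238 had 0.88 at a mean count of 208 in the authors' deposited table (SE 0.24, adjusted p = 0.0143). Implied means at the first of the hbaa1 windows were 287 in resected and 130 in uninjured hearts, a ratio of 2.20. At the hbba1 window they were 283 in resected and 133 in uninjured hearts, a ratio of 2.13.

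The third pair had a smaller fold change at its hbba1 windows, and these did not pass. For ENSDARG00000089087 the log2 fold changes were 0.69, 0.70 and 0.73 (SE 0.26 each) in the authors' deposited table, with adjusted p-values of 0.164, 0.145 and 0.114. Their mean counts were 179 in the authors' deposited table, and the implied means at the window starting at 54847709 were 238 in resected and 121 in uninjured hearts. The 95% interval of its log2 fold change with the shrinkage undone runs from 0.29 to 1.66, and that of the called hbba1 window from 0.51 to 1.68, so the intervals overlap widely. The partner si:ch211-5k11.8, whose window covers 81.1% of the same bases, had 0.87 (SE 0.26) at a mean count of 179 in the authors' deposited table and was called (adjusted p = 0.0369). The centre of the passing window of this pair thus lies 756 bases from that of the nearest failing window, and 809 and 978 bases from the others. The passing and failing windows stand on either side of the threshold.

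**Figure D1:**
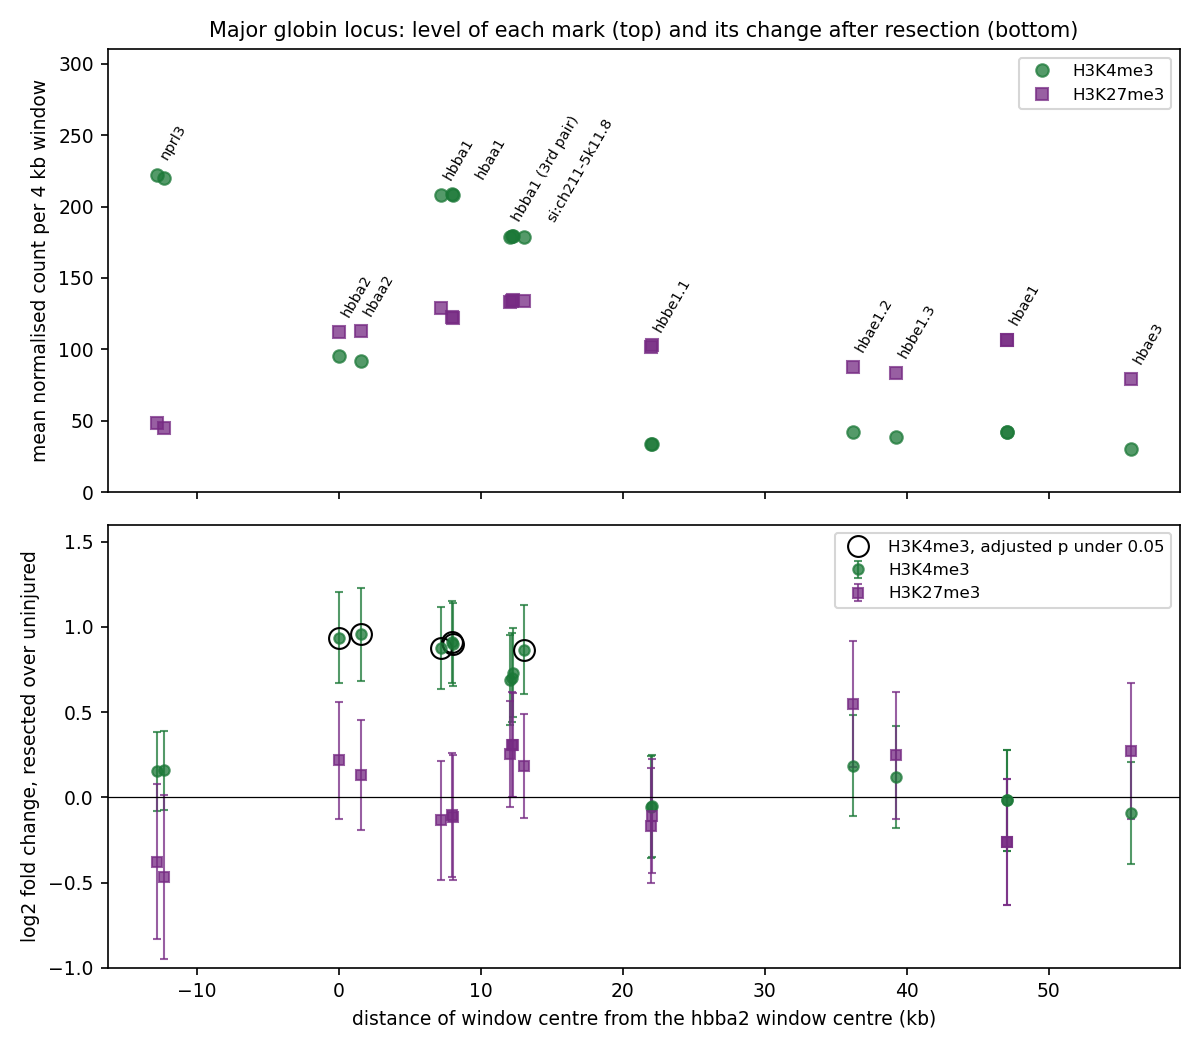
Mean normalised count per 4 kb window (top) and log2 fold change of resected over uninjured with its standard error (bottom) for both marks, by distance of the window centre from that of hbba2 in kb. H3K4me3 is higher at the adult pairs (92.0 to 209) and at nprl3 than at the embryonic globins (30.7 to 42.6). Circles mark the windows with an adjusted p under 0.05, all of them at adult globin pairs. Fold changes are as deposited, where those of H3K4me3 appear shrunk, so the marks are on different scales in the bottom panel.

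The embryonic globins farther along the locus had little H3K4me3 and no called change. Their 7 windows, which lie at 6 distinct positions and belong to 5 gene IDs (hbbe1.1, hbbe1.3, hbae1, hbae3 and AL935210.1, listed as hbae1.2 in the table of gene names), had mean counts from 30.7 to 42.6 in the authors' deposited table, all under the limit for an adjusted p. Among all windows the 8 adult globin windows lay between the percentiles 51.6 and 69.2, and the embryonic ones between 8.57 and 29.8. Log2 fold changes of the embryonic windows ran from -0.09 to 0.19 in the authors' deposited table, and the smallest unadjusted p was 0.530. On the other side lies nprl3, whose introns hold enhancers of the alpha globin genes in mammals. It had mean counts of 222 and 220 and log2 fold changes of 0.15 and 0.16 (SE 0.23 each) in the authors' deposited table, and did not pass.

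The minor globin locus on chromosome 12 was represented by 2 gene IDs. The gene hbz, which the table of gene names lists as hbae4, is an embryonic alpha globin. For it the authors' deposited table lists a mean count of 138 beside a log2 fold change of 0.51 (unadjusted p = 0.0466, adjusted p = 0.422). At hbbe2, an embryonic beta globin, it gives 25.6 and -0.24, with no adjusted p. The test of a difference between the adult and the embryonic genes needs values per library and was not made.

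The other 3 erythroid genes did not pass for H3K4me3. The gene slc4a1a came nearest: at its windows starting at 19940225 and 19940385 on chromosome 3, the authors' deposited table gives 0.54 at both (SE 0.26 and 0.27, unadjusted p = 0.0416 and 0.0403, adjusted p = 0.398 and 0.392). The windows share 3840 bases, 96% of each, so they are 1 measurement. Implied means at the first were 128 in resected and 77.3 in uninjured hearts. The remaining window of slc4a1a, centred 2561 bases upstream of the first, had a log2 fold change of -0.30 (SE 0.30) at a mean count of 37.0 in the authors' deposited table, with no adjusted p. It is the only H3K4me3 value below 0 among the 16 windows.

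For gata1a, the window from 25179241 to 25183240 on chromosome 11 had a log2 fold change of 0.47 at a mean count of 132 in the authors' deposited table (SE 0.25, adjusted p = 0.481). The 95% interval with the shrinkage undone was -0.03 to 1.26, and the implied means were 159 in resected and 104 in uninjured hearts. Its second window, 5703 bases downstream, had a mean count of 45.4 and 0.12 (SE 0.29) in the authors' deposited table, under the limit for an adjusted p. The interval of the upstream window takes in 0. With the shrinkage undone, it also takes in the log2 fold changes of hbaa1 (1.14 and 1.13) and the called hbba1 window (1.09). It takes in those of the hbba1 windows of the third pair as well (0.93, 0.94 and 0.98). Those of hbba2 (1.29) and hbaa2 (1.34) lie above its upper end. Their own 95% intervals, 0.57 to 2.01 and 0.59 to 2.09, overlap that of gata1a, and a difference was not tested.

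The gene alas2 had the smallest H3K4me3 fold change of the 7 genes at its windows with the most signal. Its 3 windows on chromosome 8 start at 21319759, 21319794 and 21319843 and share at least 97.9% of their bases, so they are 1 measurement. In the authors' deposited table they had mean counts of 87.3, 87.3 and 87.8 and a log2 fold change of 0.17 each (SE 0.28, adjusted p = 0.960, 0.960 and 0.959). With the shrinkage undone the 95% interval at the last of them was -0.56 to 1.06, and the implied means were 95.5 in resected and 80.2 in uninjured hearts.

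**Figure D2:**
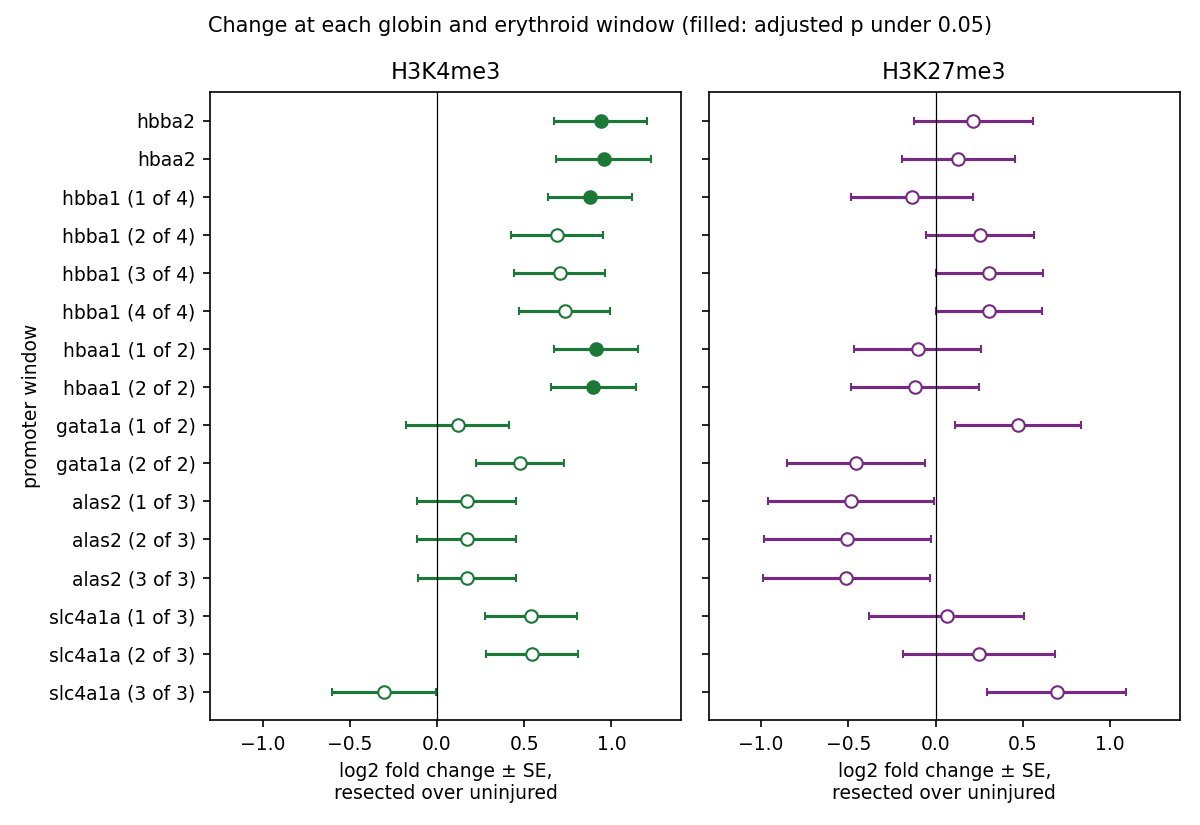
Log2 fold change of resected over uninjured with its standard error at each of the 16 windows, for H3K4me3 (left) and H3K27me3 (right), windows of a gene numbered along the chromosome. Filled points have an adjusted p under 0.05, which 5 globin windows reach for H3K4me3 and none for H3K27me3. Values are as deposited, where those of H3K4me3 appear shrunk, so sizes and errors of the marks are on different scales.

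**Figure D3:**
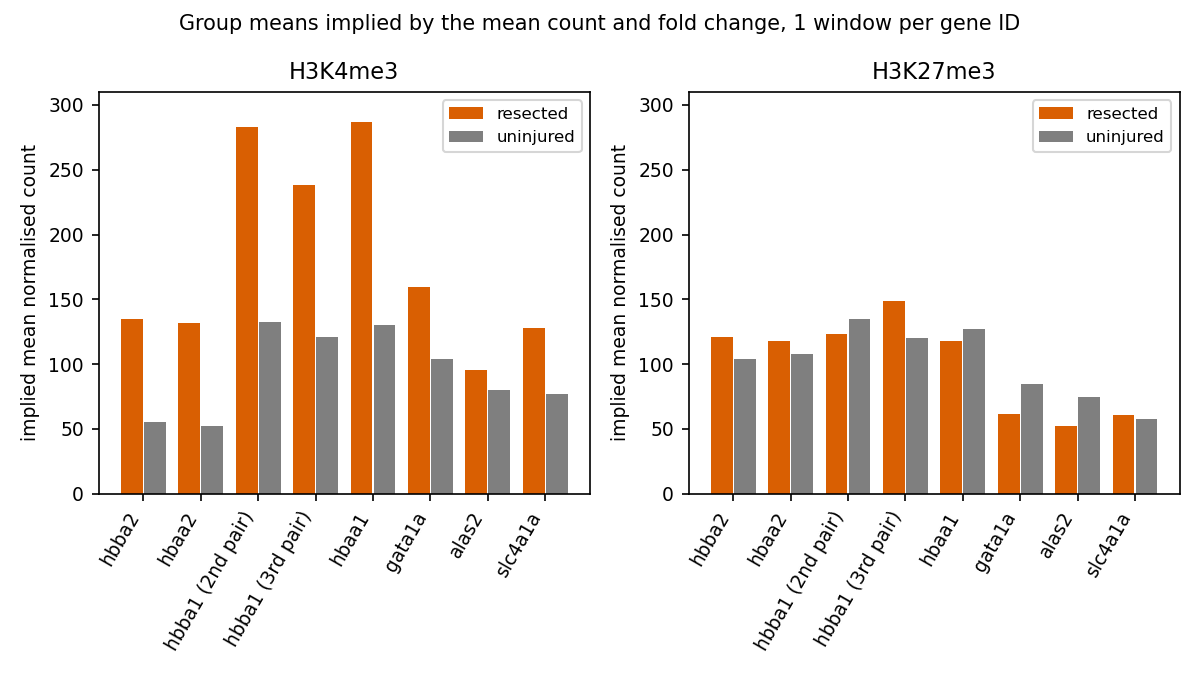
Mean normalised counts in resected and uninjured hearts as implied by the mean count and the fold change, for the window of highest H3K4me3 of each gene ID. H3K4me3 bars of resected hearts exceed those of uninjured hearts at all 8 gene IDs, most of all at the globins, where only the hbba1 gene of the third pair did not pass, and the H3K27me3 bars differ in both directions.

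H3K27me3, taken over both conditions together, was high at the adult globins, and no change was called. The 8 globin windows had mean counts from 112 to 135 in the authors' deposited table, between the percentiles 96.5 and 98.2 of all windows. The embryonic globin windows of the same locus ranged from 79.4 to 107, between the percentiles 85.2 and 95.9, and nprl3 had 48.6 and 45.1 in the authors' deposited table. Outside the globins the 8 windows of gata1a, alas2 and slc4a1a ranged from 58.1 to 79.9 in the authors' deposited table. The lowest globin values, 92.0 for H3K4me3 and 112 for H3K27me3, were both reached by 223 windows of the series, 0.530%. These limits lie at the percentiles 51.6 and 96.5 and were taken from the globin windows, which are therefore among the 223. Whether the marks lie on the same chromosomes or in different cells was not tested.

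After resection the H3K27me3 fold changes of the globins scattered around 0. In the authors' deposited table they ran from -0.13 at the hbba1 window of the second pair to 0.31 at 2 hbba1 windows of the third, with standard errors from 0.31 to 0.37. Of the 8, 5 lay above 0 and 3 below. No window of the 7 genes was called, as no window of the whole table was (0 of 41673, 0%, in what the headers show to be DESeq2 output). None of the 16 had an unadjusted p under 0.05, against 3.14% of all windows. The 95% interval at hbaa1 was -0.82 to 0.61 and at hbba2 -0.46 to 0.89, and both take in 0.

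For gata1a, slc4a1a and alas2 the H3K27me3 fold changes lay on both sides of 0, and differences between windows of a gene were not tested. At the gata1a window with the higher H3K4me3 the authors' deposited table gives -0.45 (SE 0.40, unadjusted p = 0.252), and at the downstream window it gives 0.47 (SE 0.36, unadjusted p = 0.191). The smallest p of all 16 was at the upstream slc4a1a window, with 0.69 (SE 0.40, unadjusted p = 0.0809) in the authors' deposited table, where the H3K4me3 value was below 0. The other 2 slc4a1a windows had 0.06 (SE 0.44) and 0.25 (SE 0.43) in the authors' deposited table. At alas2 the fold changes were -0.48, -0.51 and -0.51 (SE 0.48 each) in the authors' deposited table.

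Other globins and genes of red cell biology were taken in 6 lists. Without gata1a, alas2 and slc4a1a these held 102 measured genes, of which 82 had an adjusted p for H3K4me3. The list of other globins holds the embryonic globins described above and others, among them mb, the gene of muscle myoglobin. Each gene was read, for each mark, at the window where its mean count was highest. In all 2 rose and 2 fell, against 1.52% of all genes that were higher and 1.4% that were lower. The median Wald statistic, the fold change divided by its standard error, was -0.06 over the 102 genes and 0.05 over all 24416.

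Both genes that rose come from the red cell membrane and enzyme list, whose entries were chosen as red cell genes. The gene cahz, a carbonic anhydrase of red cells, had 0.99 in the authors' deposited table (SE 0.26, adjusted p = 0.00968), and epb41b, the protein 4.1 that ties the membrane to its skeleton, had 0.90 (SE 0.27, adjusted p = 0.0342). Without the authors' filter on low counts epb41b did not pass (adjusted p = 0.0557). Of the 24 genes of the red cell membrane and enzyme list beside slc4a1a, these 2 rose, none fell, and 18 with an adjusted p did not pass, with a median Wald statistic of 0.45.

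The genes that fell come from the list of other globins and that of erythropoietin and stem cell factor signalling genes. One was mb, the gene of myoglobin, the oxygen store of muscle (-1.36 in the authors' deposited table, SE 0.24, adjusted p = 2.01e-05). The other was epoa, the gene of erythropoietin, a signal to red cell precursors (-1.16 in the authors' deposited table, SE 0.25, adjusted p = 0.000643).

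The lists of transcription factors, haem genes and iron genes held no called gene. Of the erythroid transcription factors other than gata1a, 0 of 22 with an adjusted p passed (median Wald statistic 0.81). Of the 24 measured, 16 lay above 0 and 8 below, with log2 fold changes from -0.66 at gata2a (adjusted p = 0.0689) to 0.84 at E2F2 (adjusted p = 0.0517) in the authors' deposited table. Among them klf1, a direct activator of adult beta globin in mammals, had 0.72 (adjusted p = 0.144) in the authors' deposited table, and tal1, a partner of GATA1, had 0.53 (adjusted p = 0.291). On the other side CBFA2T3 had -0.65 (adjusted p = 0.137) and bcl11aa, a relative of the mammalian globin repressor gene BCL11A, had -0.60 (adjusted p = 0.117) in the authors' deposited table. Haem synthesis and export genes other than alas2 gave 0 of 20 (median -0.31), and iron uptake and storage genes 0 of 12 (median -0.18). The mitochondrial iron importer gene slc25a37 had -0.03 (adjusted p = 0.997) in the authors' deposited table. Of the erythropoietin and stem cell factor signalling genes beside epoa, 0 of 5 passed, and the receptor gene epor had 0.45 in the authors' deposited table (adjusted p = 0.589). The genes gata2a, E2F2, CBFA2T3, bcl11aa, klf1, tal1, slc25a37 and epor were picked after their values were seen. For H3K27me3 no gene of the 6 lists passed, and 5 of 101 had an unadjusted p under 0.05, against 2.89% of all genes.

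**Figure D4:**
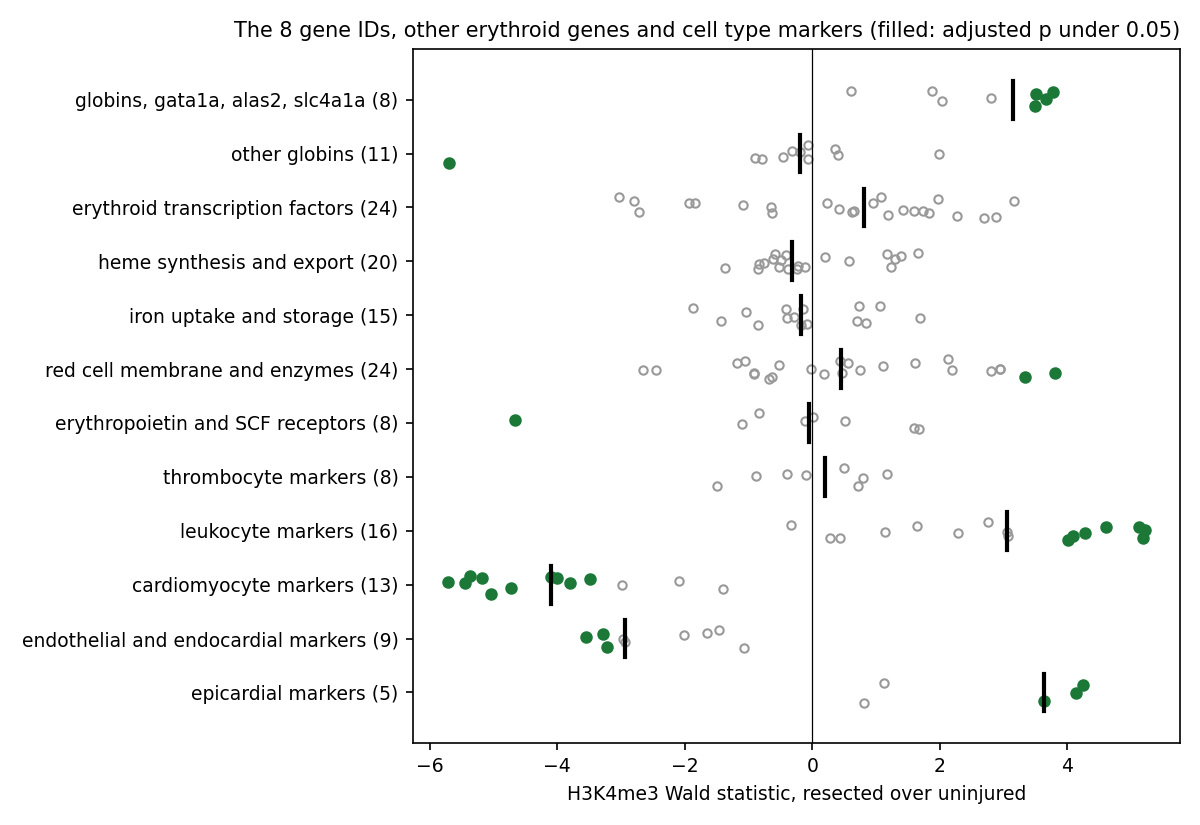
H3K4me3 Wald statistic of resected over uninjured hearts, 1 point per gene, with gene numbers in brackets and a black bar at the median. Rows are the 8 gene IDs, the 6 lists of other globins and red cell genes and 5 lists of cell type markers. Filled points have an adjusted p under 0.05, which 4 of the 8 gene IDs reach, and the iron and haem lists centre near 0 while the leukocyte, epicardial, cardiomyocyte and endothelial markers lie away from it.

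Markers of other cells moved in the same comparison, and their part in the globin result was not tested. Of all genes with an adjusted p, 1.52% were higher and 1.4% lower, as above. Of 13 leukocyte markers with an adjusted p 7 rose and none fell (coro1a, lcp1, spi1b, il10ra, laptm5, ikzf1 and cebpa), with a median Wald statistic of 3.06 over all 16 measured. Thrombocyte markers gave 0 of 7 with an adjusted p, and a median of 0.20. Of 12 cardiomyocyte markers with an adjusted p 10 fell and none rose, among them cmlc1, myl7, nppa and vmhcl (median -4.09 over 13 measured). Among 9 endothelial and endocardial markers kdrl, nfatc1 and kdr fell (median -2.94), and among 5 epicardial markers tbx18, wt1a and wt1b rose (median 3.63). In both conditions together the median mean H3K4me3 count was 244 for endothelial and endocardial markers, 167 for cardiomyocyte and 153 for epicardial markers. It was 100 for leukocyte and 81.6 for thrombocyte markers, against 94.0 for all genes.

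Genes with the most similar values were sought by the distance over 4 values per gene, the log2 mean count and the Wald statistic of each mark, each scaled to an SD of 1 over 24075 genes. The nearest to the mean of the globins were si:ch211-5k11.8 (distance 0.50), which shares reads with hbba1, then epb41b (0.81) and slc10a4 (0.86). To gata1a the nearest were si:ch211-160o17.6, ccdc87 and phldb2a (0.31 each), to alas2 ccdc92 (0.17), nsun6 (0.19) and clip2 (0.22), and to slc4a1a shmt1 (0.19), znf1029 (0.23) and alkbh2 (0.27). These distances rest on the 12 libraries of both marks and describe levels and changes only.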

How the data were processed

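ChIP-seq of H3K4me3 and H3K27me3 was deposited as 1 table per mark. Per the file headers, the authors gave for every window a signal, the mean normalised read count. The log2 fold change, its standard error, the Wald statistic used here as a score and each p-value were deposited by the authors. The submitters' processing notes list, without roles, the builds danRer10, danRer7 and GRCz10 and the tools DESeq2, MACS2, bedtools 2.26.0, Bowtie2 2.3.2, BWA, SAMtools and Picard 2.8.1.

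Python 3.11.15 with pandas 2.3.3 was used. H3K4me3 standard errors end at 0.301, the ceiling left by shrinkage with a normal prior (SD 0.603), and that prior was undone for intervals (95%, normal) and implied means. The undoing and the Benjamini-Hochberg adjustment were tested on simulated data with the prior SD given. That check does not cover reading the SD from the ceiling of the standard errors. The undoing assumes that the data of each window weigh more than the prior. Simulated windows were all drawn that way, so the check does not cover this assumption either. Of 170 list entries, 152 were found by symbol, 5 through the table of gene names, and 13 were not found. Named genes are the 7, the called genes of each list (up to 10), neighbours within 50 kb and the 3 most similar genes per target. Outside these rules, hbz and hbbe2 were named as the minor globin locus, and the list genes picked after their values were seen are given above. The 7 genes and the lists were chosen with earlier results of these data known. A test of the difference between marks was not run because their fold changes are on different scales. Promoter sequences were not analysed here.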

Additional observations from a re-analysis of the deposited data

How the results depend on the processing

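The 5 called globin windows for H3K4me3 were also 5 with no filter on low counts, with a mean count of at least 10 and at a threshold of 0.1, and with 1 window per gene ID the count was 4. At a threshold of 0.01 it was 0, and among windows that overlap no window of another symbol it was 0, since all 8 globin windows overlap one. In the 6 lists of other genes 4 were called, of which cahz and epb41b were higher and mb and epoa lower. The count was also 4 with the window of smallest p, and 3 with no filter, where epb41b did not pass. For H3K27me3 each of these counts was 0. Undoing the shrinkage multiplied the H3K4me3 log2 fold changes by 1.25 to 1.70. The multiplier is positive by construction, so no sign could turn. Leaving out replicates was not run, as it needs values per library. No paired analysis was possible because the deposited columns hold no values of single libraries. 1 window each of gata1a and slc4a1a had a mean H3K4me3 count under the limit for an adjusted p, at 45.4 and 37.0. In the same 6 libraries, other windows of these genes had up to 132 at gata1a and 103 at slc4a1a. What accounts for the low counts was not tested.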
